A study of Homo sapiens with 9 samples.

Results

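The hypoxia response genes examined here are CA9, NDRG1, ANGPTL4, EGLN3, SLC2A1 and ADM. Their members are the called p65 and TEAD peaks whose summit lay within 75 kb of a given hg19 position of each gene, taken here as its start. The 5 deposited lists hold 60345 peaks, of which 108 were members: 26 of the 15465 peaks of the p65 control list, 30 of 17958 in the p65 vehicle list, 5 of 1813 in the list labelled siTEAD4, 5 of 1649 in the p65 XMU-MP-1 list and 42 of 23460 in the TEAD list. Peaks were taken by position only and by no peak value, but the genes were chosen with results of these data known.

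The study profiled chromatin of 786-O, an established line of human clear cell renal carcinoma, by chromatin immunoprecipitation and sequencing. The p65 subunit of NF-κB was precipitated from control cells with no treatment label, from cells labelled siTEAD4 in the title and siTEAD in the treatment field, from vehicle cells and from cells given XMU-MP-1, which inhibits MST1 and MST2, kinases of the Hippo pathway. TEAD, the family of DNA-binding partners of YAP, was precipitated from XMU-MP-1 cells only. The 9 libraries, of which 4 are inputs, comprise 1 per condition, all from the same line. The labels used here give no dose or time.

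Because no condition was repeated, differences between lists have no replicate check, and p-values are left out. The peak identifiers of the list labelled siTEAD4 carry the name p65_Vert, which no label uses, so its treatment rests on the sample label alone.

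Cells that lose VHL, the substrate receptor of a ubiquitin ligase, no longer degrade the α subunits of the hypoxia-inducible factors, and their target genes are then transcribed at normal oxygen. Loss of VHL is the typical lesion of clear cell renal carcinoma, and 786-O is a widely used line with this loss, which is known to express the EPAS1 protein and not HIF1A. The factors bind a short core, ACGTG or GCGTG, in promoters and enhancers. The 6 genes are textbook targets: SLC2A1 encodes the glucose transporter GLUT1, CA9 a membrane carbonic anhydrase that acidifies the surroundings of the cell, ANGPTL4 a secreted inhibitor of lipoprotein lipase, ADM the vasodilator peptide adrenomedullin, EGLN3 a prolyl hydroxylase that marks the α subunits for degradation, and NDRG1 a stress-induced cytoplasmic protein. Neither hypoxia-inducible factors nor RNA were measured in these libraries, so the lists show where p65 and TEAD were called, not how much of each gene was transcribed.

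The promoters are shown first, because the lists differ at the gene starts. RefSeq promoter sequences of build GRCh38.p14 were matched for 5 of the 6 genes, all but NDRG1. The 250 bases before each start are given 5′ to 3′ as the gene reads. Capitals mark matches on either strand to the hypoxia-inducible factor core (ACGTG or GCGTG) and to the AP-1 motif (TGACTCA or TGAGTCA). The TEAD motif GGAATG and the NF-κB consensus motif were searched in the same way and were in none of the 5. The peaks are in hg19 and were not placed on these letters.
CA9 (chr9:35673678-35673927, plus strand): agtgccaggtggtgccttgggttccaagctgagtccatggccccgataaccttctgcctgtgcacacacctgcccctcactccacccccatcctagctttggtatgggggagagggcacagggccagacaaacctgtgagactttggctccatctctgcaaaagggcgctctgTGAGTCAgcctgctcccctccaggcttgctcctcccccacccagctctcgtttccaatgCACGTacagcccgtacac
ANGPTL4 (chr19:8363905-8364154, plus strand): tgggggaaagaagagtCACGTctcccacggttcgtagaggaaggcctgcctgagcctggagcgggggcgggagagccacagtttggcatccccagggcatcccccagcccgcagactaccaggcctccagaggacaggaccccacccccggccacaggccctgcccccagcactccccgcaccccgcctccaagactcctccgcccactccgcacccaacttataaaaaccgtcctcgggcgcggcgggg
ADM (chr11:10304823-10305072, plus strand): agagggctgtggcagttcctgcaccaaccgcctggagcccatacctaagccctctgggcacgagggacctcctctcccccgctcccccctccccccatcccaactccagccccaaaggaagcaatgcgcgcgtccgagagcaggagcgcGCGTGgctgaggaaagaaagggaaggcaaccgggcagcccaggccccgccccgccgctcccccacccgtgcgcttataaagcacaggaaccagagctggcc
EGLN3 (chr14:33951075-33951324, minus strand): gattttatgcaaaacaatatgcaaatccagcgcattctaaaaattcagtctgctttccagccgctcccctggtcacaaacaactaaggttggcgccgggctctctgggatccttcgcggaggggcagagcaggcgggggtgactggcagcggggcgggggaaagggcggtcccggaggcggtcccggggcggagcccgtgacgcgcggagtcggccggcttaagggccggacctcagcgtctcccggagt
SLC2A1 (chr1:42958869-42959118, minus strand): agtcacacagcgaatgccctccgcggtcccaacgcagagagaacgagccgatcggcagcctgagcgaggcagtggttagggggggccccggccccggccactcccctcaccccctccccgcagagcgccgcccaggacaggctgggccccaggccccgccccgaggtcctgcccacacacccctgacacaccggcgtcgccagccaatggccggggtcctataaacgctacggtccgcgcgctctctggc

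The core was 14 to 18 bases before the start in CA9, 230 to 234 bases before it in ANGPTL4 and 97 to 101 bases before it in ADM. CA9 also held TGAGTCA, 71 to 77 bases before the start, and the promoters of EGLN3 and SLC2A1 held none of the motifs searched. The core was present in 43.2% of the 35116 RefSeq promoter windows of this length, so a match is common. The AP-1 motif was in 4.203% of them, GGAATG in 11.9% and the NF-κB motif in 5.21%. A match is a run of letters and not a measured binding site.

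At the starts themselves the lists held different genes. Within 1 kb of a start, p65 was called at 4 genes in the control list (NDRG1, ANGPTL4, EGLN3 and ADM) and at NDRG1 alone in the vehicle list and in both treated lists. TEAD was called there at 4 genes: NDRG1, ANGPTL4, SLC2A1 and ADM. The share over all gene starts was not computed, since no hg19 annotation was used here, so these counts do not show whether the 6 starts differ from others. CA9 had no peak within 1 kb in any list. Its promoter is the one that holds both the core and the AP-1 motif.

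The peaks near 4 of the starts formed different combinations. Their distances are from the given hg19 positions. These can differ by some bases from the RefSeq starts, so summits cannot be set against single letters or motifs above. The ANGPTL4 promoter had a control p65 summit 66 bp before the start with a fold of 8.59 and a TEAD summit 150 bp before it with a fold of 5.10. Fold is the authors' enrichment at the summit over the local background of the same library. The ADM promoter had a control p65 summit 154 bp before the start (fold 4.06) and a TEAD summit 15 bp after it (fold 4.18). EGLN3 had only a control p65 summit 45 bp before the start, with a fold of 5.18, and its nearest TEAD summit lay 1133 bp after the start with a fold of 3.15. SLC2A1 had only TEAD, with a summit 55 bp after the start and a fold of 5.52.

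Most control members were shared with the vehicle list, and the exceptions were promoter peaks. Of the 26 control members, 23 (88.5%, 95% Wilson interval 71.0 to 96.0) had a vehicle peak, against 79.5% of all control peaks. The 3 without one were the promoter peaks of ANGPTL4, ADM and EGLN3, all within 154 bp of a start. They held 40, 26 and 22 fragments at the summit. Conversely 22 of 30 vehicle members (73.3%, 55.6 to 85.8) had a control peak, against 68.5% of all vehicle peaks, and only 1 of the 8 without one lay within 1 kb of a start. Before the scaling found in its values, the control library was 1.83 times as deep as the vehicle library, judged by the background of the peaks. At the scale on which peaks were called the ratio was 1.07. Its part in the promoter peaks was not tested.

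**Figure D1:**
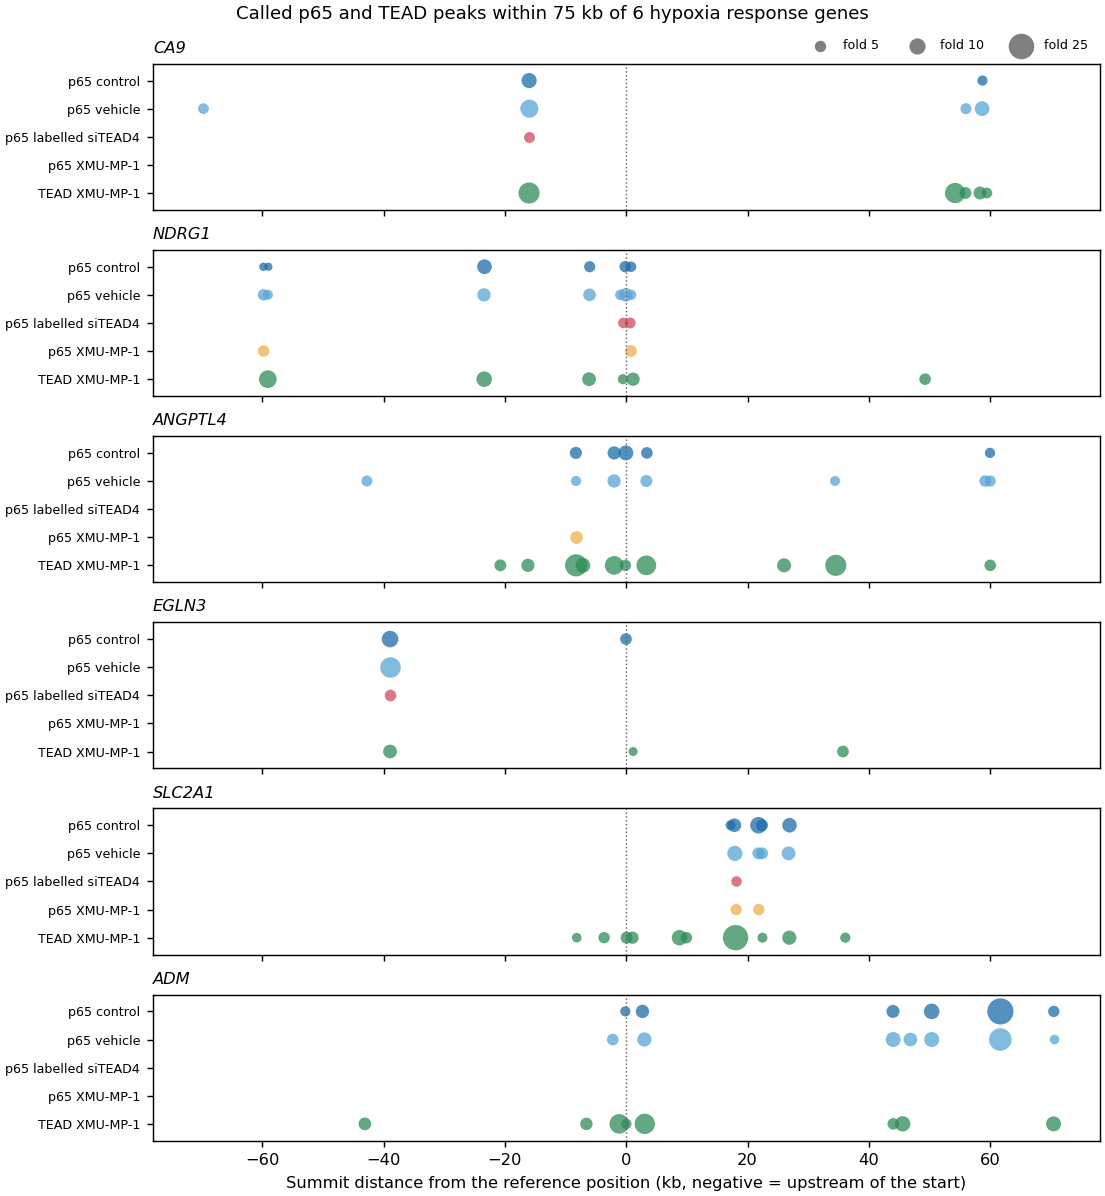
Each point is a called peak, placed by the distance of its summit from the gene's reference position in kb (negative is upstream as the gene reads), in 1 row per list and 1 panel per gene, with the area of the point proportional to its fold. The points of both treated p65 lists are few and small, none lies in the ADM panel, and the SLC2A1 panel has TEAD at the start and p65 only downstream.

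The 108 members formed 51 sites, a site being a chain of peaks of any list that overlap by at least 1 bp. TEAD, from XMU-MP-1 cells, was called at 42 sites, and p65 in any of its lists at 31. Both were called at 22 sites, not always in cells of the same treatment. A single list called 26 of the sites and 19 were called in 3 or more lists. TEAD alone was found at 20 sites and p65 alone at 9. The 23 sites described below by name were in 3 or more lists or had a fold of at least 10 in any list.

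The surroundings of most of these genes were rich in peaks. A window of 150 kb around a gene held a mean of 4.33 control, 5 vehicle and 7 TEAD summits. The 19582 bins of the same width that cover the chromosomes, including their unmappable parts, held means of 0.788, 0.915 and 1.20. All 6 windows had control, vehicle and TEAD summits, beside 36.5%, 39.6% and 46.2% of bins with at least 1. Summits labelled siTEAD4 were in 4 of the 6 windows and 7.16% of bins, and XMU-MP-1 p65 summits in 3 windows and 6.39% of bins. ANGPTL4 and SLC2A1 had 10 TEAD summits each, a number reached by 0.720% of bins. EGLN3 was the poorest window, with 3 TEAD, 2 control and 1 vehicle summits, numbers reached by 16.9%, 18.7% and 39.6% of bins. Bins were not matched for the number of genes they hold, and the genes were chosen with results of these data known.

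**Figure D2:**
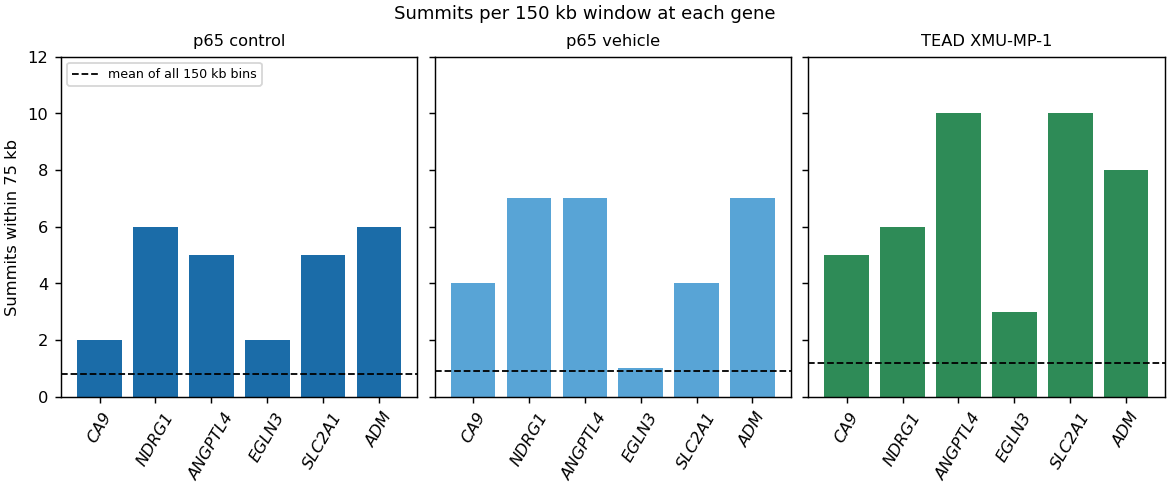
Bars give the number of summits within 75 kb of each gene in the p65 control, p65 vehicle and TEAD lists, and the dashed line the mean of all 150 kb bins. Bars of ANGPTL4 and SLC2A1 reach 10 in the TEAD panel, and the single vehicle summit of EGLN3 lies near the dashed line.

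In strength the members were ordinary. The median fold was 5.53 for control members and 5.98 for the whole control list, 5.48 and 5.87 for the vehicle list, and 6.58 and 6.27 for the TEAD list. In the treated lists the members were low: 4.58 against 5.37 in the list labelled siTEAD4 and 4.99 against 5.96 in the XMU-MP-1 list. Solving the fold and p-value of each peak for its fragments gave 22 to 112 fragments at the summit of control members, 11 to 60 for vehicle members and 10 to 101 for TEAD members. The 5 members of the list labelled siTEAD4 rested on 21 to 28 fragments and the 5 of the XMU-MP-1 list on 24 to 40. Intervals on these fragments, where given, are exact 95% Poisson intervals and cover counting error only.

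The genes of glucose uptake and pH come first. At SLC2A1 all p65 peaks lay downstream of the start, between 17.2 and 26.9 kb. The strongest TEAD peak of all the members was there, at the site 17.96 kb downstream (chromosome 1 from 43406411 to 43407841). Its fold was 24.6 on 85 fragments, at percentile 97.1 of the TEAD list. This site was called in all 5 lists, with a p65 fold of 7.12 in control, 8.87 in vehicle, 4.22 in siTEAD4-labelled and 4.77 in XMU-MP-1 cells. TEAD had a higher fold than any p65 list here, each over its own background.

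The neighbouring SLC2A1 sites showed other combinations. The site 21.8 kb downstream (43402765 to 43403371) had a p65 fold of 10.4 in control, 5.47 in vehicle and 4.94 in XMU-MP-1 cells, with no TEAD peak and none labelled siTEAD4. It was the only one of the 8 sites with a peak in a treated p65 list that had no TEAD peak. The neighbouring site 22.4 kb downstream (43402264 to 43402571) had a control fold of 5.41, a vehicle fold of 5.44 and a TEAD fold of 3.83, and no treated p65 peak. The site 26.9 kb downstream (43397686 to 43398536) had 8.15, 7.37 and 7.73 in the same 3 lists. The other 7 SLC2A1 sites, including the 1 at the start, were TEAD alone, with folds of 3.59 to 9.25.

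Around CA9 both factors were called at a distance. The site 16.0 kb upstream (chromosome 9 from 35657615 to 35658341) had a TEAD fold of 17.03 with 101 fragments, the most of any TEAD member. Its p65 fold was 8.87 in control, 12.6 in vehicle and 4.58 in siTEAD4-labelled cells, and it had no XMU-MP-1 p65 peak. The p65 fragments at the summit were 89 in control, 51 in vehicle and 28 in siTEAD4-labelled cells (18.6 to 40.5). Downstream, a TEAD peak 54.2 kb from the start (35727905 to 35728683) had a fold of 15.7 and no p65. The site 58.6 kb downstream (35732047 to 35732814) had a control fold of 4.0, a vehicle fold of 8.31 and a TEAD fold of 6.40. In the GRCh38 annotation CA9 lies among many genes, with SIT1, RMRP, CCDC107 and ARHGEF39 on the upstream side and TPM2, TLN1 and CREB3 on the downstream side, and the files do not tie a peak to any of them. RMRP encodes the RNA of an endoribonuclease and is transcribed by RNA polymerase III. The positions of these genes were not compared with the sites. A site named here by its distance from CA9, or from any other of the 6 genes, may therefore lie on, or nearer to, another gene.

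The genes of secreted proteins follow. ANGPTL4 had several sites with strong TEAD. Apart from the promoter, TEAD folds were 18.8 at the site 8.28 kb upstream (chromosome 19 from 8420214 to 8420987), 13.3 at 2.0 kb upstream (8426741 to 8427300) and 14.9 at 3.31 kb downstream (8431917 to 8432592 in the TEAD list). All were also called for p65 in both reference lists, with control folds of 5.65, 6.73 and 5.20 and vehicle folds of 4.02, 6.79 and 5.49. Of the treated p65 lists only XMU-MP-1 had a peak near this gene, at the site 8.28 kb upstream, with a fold of 6.22 and 24 fragments. It is 1 of 2 places among the members where the XMU-MP-1 fold was above the vehicle fold.

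A further pair of ANGPTL4 sites lay far downstream. The site 34.5 kb downstream (8463286 to 8463761) had a TEAD fold of 17.1 and a vehicle p65 fold of 3.84 on 11 fragments. The site 59.98 kb downstream (8488837 to 8489127) had a control fold of 4.06, a vehicle fold of 4.80 and a TEAD fold of 5.15. KANK3 and RPS28 on the upstream side and RAB11B, MARCHF2 and HNRNPM on the downstream side are among the neighbours of ANGPTL4 in the GRCh38 annotation. Their positions were not compared with the sites.

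ADM was the only gene besides ANGPTL4 with no peak labelled siTEAD4, and it had none in the XMU-MP-1 p65 list either, with 6 control, 7 vehicle and 8 TEAD members. It held the strongest p65 site of all the members, 61.6 kb downstream (chromosome 11 from 10388047 to 10388525). Its control fold was 26.3, rank 94 of that list, and its vehicle fold 19.5, rank 488. The fragments at the summit were 112 in the control (92.2 to 134.8) and 60 in the vehicle (45.8 to 77.2). No TEAD peak and no treated p65 peak lay there.

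Control sites of that strength were usually kept. Of the 321 control peaks with a fold of at least 20, 89.7% had a peak labelled siTEAD4. The ADM site, the only member among the 321, ranks the fifth in fold among the 13728 control peaks without one. In the vehicle list, where its fold was below 20, it ranks 124 among the 16383 peaks with no XMU-MP-1 peak. Of the 2973 vehicle peaks with a fold of at least 10, 35.9% had an XMU-MP-1 peak. By the same measure, the depth of the library labelled siTEAD4 was 1.06 times that of the control before scaling and 1.81 times at the scale of calling, and its peaks were called on as few as 12 fragments. For XMU-MP-1 the depth was 1.60 times that of the vehicle before scaling and 1.25 times at the scale of calling, and the fewest fragments were 14.

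Closer to ADM, TEAD was strong on either side of the start. The site 1.15 kb upstream (10325240 to 10325794) had a TEAD fold of 14.7 and no p65 peak. The site 2.98 kb downstream (10328841 to 10329891) had a TEAD fold of 15.9 beside a control p65 fold of 6.87 and a vehicle p65 fold of 7.81. Sites 43.99 and 70.5 kb downstream were also shared by the control, vehicle and TEAD lists, with p65 folds of 6.54 and 8.63 at the first and 4.94 and 3.598 at the second, beside TEAD folds of 5.15 and 8.59. SBF2 is the neighbour on the upstream side in the GRCh38 annotation.

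EGLN3, which feeds back on the pathway, had a single site in more than 1 list. It lay 38.9 kb upstream (chromosome 14 from 34459012 to 34459421). The p65 fold was 10.5 in control, 16.2 in vehicle and 5.13 in siTEAD4-labelled cells, with 88, 41 and 21 fragments. TEAD had a fold of 7.28 with 29 fragments, so this is a place where p65 in the reference lists stood higher above its background than TEAD. XMU-MP-1 cells had no p65 peak there. All 4 summits lay between 38.90 and 38.93 kb from the start.

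NDRG1 was the only gene with treated p65 peaks at its start. The site 0.784 kb downstream (chromosome 8 from 134308246 to 134309037) was called in all 5 lists, with a p65 fold of 4.28 in control, 4.13 in vehicle, 4.58 in siTEAD4-labelled and 5.39 in XMU-MP-1 cells and a TEAD fold of 6.78. The reference folds put it at percentiles 15.02 and 11.97 of their lists, so this weak site was kept in both treated lists. The fragments were 38, 18, 28 and 40 in the order of the p65 lists above. The p65 summits lay 642 to 813 bp after the start and the TEAD summit 1123 bp after it. The TEAD peak overlapped the p65 peaks only at its edge. Over whole lists 1.78% of the 4541 control peaks with a fold below 5 had a peak labelled siTEAD4, and 1.27% of the 5596 such vehicle peaks had an XMU-MP-1 peak. Among members with a fold below 5, 2 of 10 control peaks and 2 of 10 vehicle peaks were kept in these lists.

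The second NDRG1 start site (134309379 to 134310590) had a p65 fold of 4.92 in control, 7.08 in vehicle and 4.30 in siTEAD4-labelled cells, and a TEAD fold of 3.96. Further upstream of the gene, the site at 6.05 kb (134315218 to 134315814) had p65 folds of 4.84 and 6.17 in the reference lists and a TEAD fold of 7.30. The site at 23.4 kb (134332416 to 134333211) had 8.28, 6.82 and 9.28 in the same lists. The site at 59.4 kb (134368391 to 134369513) added an XMU-MP-1 p65 peak with a fold of 4.99. Its summit lay 59.77 kb upstream, near a control summit (fold 2.68) and a vehicle summit (fold 5.07). The TEAD summit (fold 12.02) lay at 59.07 kb, near weaker control (fold 2.55) and vehicle (fold 3.86) summits. CCN4, which encodes a secreted matrix protein, is the only protein-coding neighbour within 75 kb in the GRCh38 annotation, on the side of the NDRG1 3′ end.

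**Figure D3:**
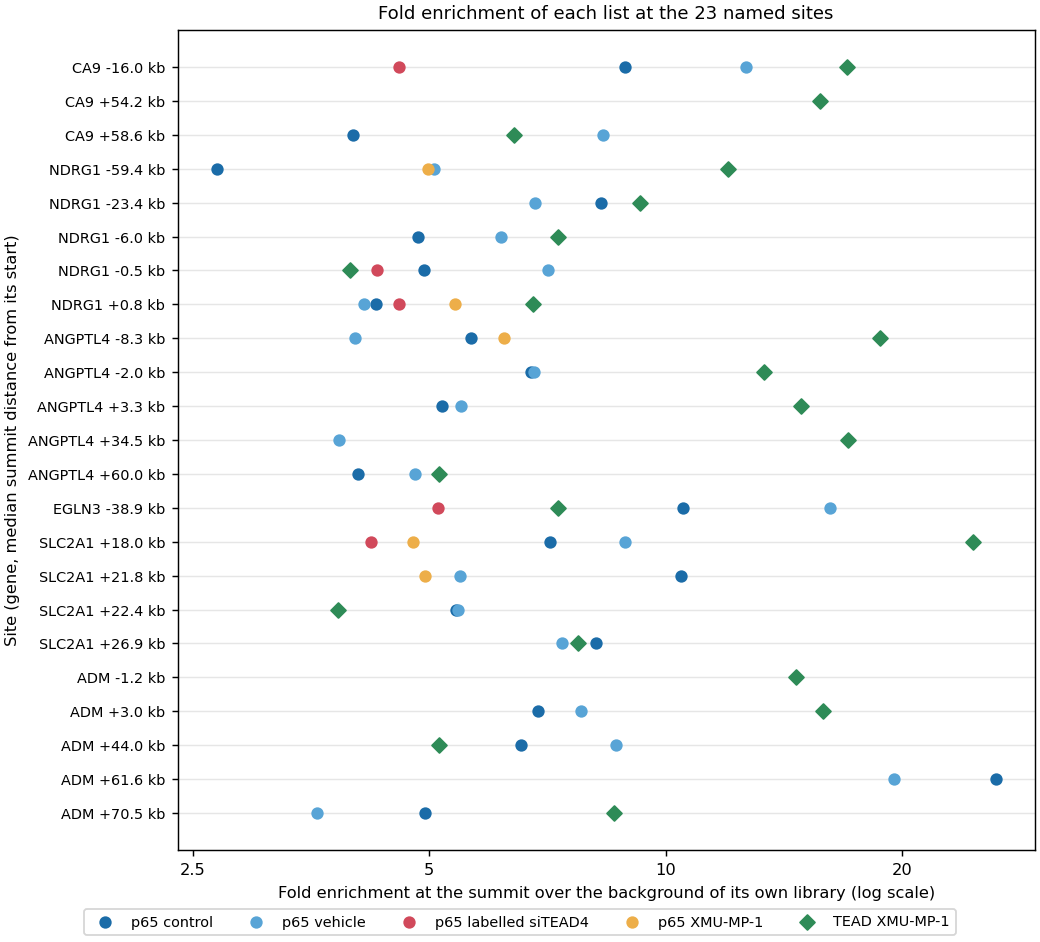
Each row is 1 of the 23 named sites, labelled by gene and by the median distance of its summits from the start, and points give the fold of each list at the summit over the background of its own library, on a log axis. The ADM site at 61.6 kb has the highest p65 folds and no treated or TEAD point, while treated points lie between 4.22 and 6.22 at the sites that have them.

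Ordered by their highest control p65 fold, the genes were ADM (26.3), EGLN3 (10.5), SLC2A1 (10.4), CA9 (8.87), ANGPTL4 (8.59) and NDRG1 (8.28). Ordered by their highest TEAD fold they were SLC2A1 (24.6), ANGPTL4 (18.8), CA9 (17.03), ADM (15.9), NDRG1 (12.02) and EGLN3 (7.28). With 1 library the spread between replicates is unknown, so no ranks in these orders can be tested, whether neighbouring or further apart.

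The first comparison of the design sets the list labelled siTEAD4 against the control. Control peaks were kept, that is overlapped by at least 1 bp, at 5 of 26 members (19.2%, 8.51 to 37.9), against 11.2% of all control peaks, and this share lies inside the interval. It was 3 of 26 (11.5%) when 50% of the shorter peak had to overlap, against 11.1% of the list, and also 3 of 26 with summits within 200 bp, against 10.9%. With a fold of at least 5 in every list it was 1 of 16 (6.25%), against 9.50% of the list. The kept peaks were those of SLC2A1 at 17.8 kb, EGLN3 at 38.9 kb, CA9 at 16.0 kb and both NDRG1 start sites. All 5 were among the 22 control members with a TEAD peak, and none of the 4 without a TEAD peak was kept. Over the whole list the share kept was 17.3% where TEAD was called and 5.79% where it was not. The median control fold of the kept members was 7.12, against 12.7 for all kept control peaks. Of the 3 control members with a fold of at least 10, 1 was kept, beside 43.9% of such peaks of the whole list.

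At the kept members the fold in the list labelled siTEAD4 was a median of 0.592 times the control fold. For all 1737 kept control peaks the median was 0.463. A ratio exists only where both lists called a peak, so weak control peaks with a much lower treated fold drop out. As the kept members were the weaker in the control, these medians cannot be compared directly. The ratio was 0.488 at EGLN3, 0.516 at CA9, 0.592 at SLC2A1, 0.873 at the NDRG1 site before the start and 1.07 at the NDRG1 site after it. Summits of the SLC2A1 pair lay 331 bp apart and those of the NDRG1 pair before the start 284 bp, and the median of the 3 pairs within 200 bp was 0.516. Ratios above 1 were found at 5.70% of all kept control peaks. Since the background differs between libraries, such a ratio is no measure of change in occupancy.

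The second comparison sets XMU-MP-1 against the vehicle. Vehicle peaks were kept at 5 of 30 members (16.7%, 7.34 to 33.6), against 8.77% of all vehicle peaks, which is again inside the interval. They lay at SLC2A1 (17.9 and 21.8 kb downstream), ANGPTL4 (8.28 kb upstream) and NDRG1 (0.813 kb downstream and 59.8 kb upstream). With a fold of at least 5 in every list, 0 of 20 were kept (95% Wilson interval 0 to 16.1%). The whole list then had 9.13%, which is inside that interval. The kept members were weak in the vehicle list, with a median fold of 5.07 against 12.9 for all kept vehicle peaks. None of the 3 vehicle members with a fold of at least 10, at ADM, EGLN3 and CA9, was kept, where 35.9% of such peaks of the whole list were. The fold ratio to the vehicle was 0.538 and 0.904 at SLC2A1, 0.985 and 1.30 at NDRG1 and 1.55 at ANGPTL4. Its median was 0.985, against 0.504 for all 1575 kept vehicle peaks. A ratio exists only where both lists called a peak, so weak vehicle peaks with a much lower treated fold drop out. As the kept members were the weaker, these medians cannot be compared directly. Summits of the SLC2A1 pair with the ratio of 0.538 lay 209 bp apart, and the median of the 4 pairs within 200 bp was 1.14.

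Both treated lists called p65 at the same place at 2 of the 51 sites, SLC2A1 at 17.96 kb and NDRG1 at 0.784 kb, and at least 1 of them called p65 at 8. The overlap of the treated lists as a whole was not computed, so these counts do not show whether the sites are unusual. Every member of the list labelled siTEAD4 had a control peak (5 of 5, beside 96.3% of that list), and each of the 5 XMU-MP-1 members had a vehicle peak (beside 95.7%). CA9 and EGLN3 had treated peaks only in the list labelled siTEAD4, and ANGPTL4 only in the XMU-MP-1 list. Whether these genes differ between treatments was not tested, since each case is 1 called peak.

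The third comparison is that of p65 with TEAD. TEAD was precipitated from XMU-MP-1 cells only, so its overlaps with control, vehicle and siTEAD4-labelled peaks are between different cells and do not show binding together. A TEAD peak overlapped 22 of 26 control members (84.6%, 66.5 to 93.9) and 22 of 30 vehicle members (73.3%, 55.6 to 85.8). The whole lists had 47.4% and 45.6%, which lie below both intervals. The intervals treat neighbouring peaks of 1 locus as independent, and TEAD peaks were dense in these windows. With summits within 200 bp in place of overlap, 17 of 30 vehicle members (56.7%, 39.2 to 72.6) had a TEAD peak, and the 39.99% of the whole list then lay inside the interval. In the treated lists TEAD overlapped 5 of 5 members labelled siTEAD4, beside 71.6% of that list, and 4 of 5 XMU-MP-1 members, beside 75.2%. Seen from TEAD, 20 of 42 members (47.6%, 33.4 to 62.3) had a vehicle p65 peak, against 34.5% of the TEAD list. With a control p65 peak there were also 20 (47.6%, 33.4 to 62.3), and here the 30.9% of the TEAD list lies below the interval. Only 4 of 42 (9.52%, 3.77 to 22.1) had an XMU-MP-1 p65 peak from the same treatment, against 5.26%. A peak labelled siTEAD4 was at 5 of 42 (11.9%, 5.2 to 25), against 5.5%.

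Summits of p65 and TEAD were no closer at the median than over whole lists. The median distance was 70.5 bp for the 22 vehicle members with a TEAD peak, and 60 bp for the 8193 such peaks of the whole list. Within 50 bp were 10 of the 22, beside 43.6% of the list. For control members the median was 90.5 bp, against 56 bp, and 7 of 22 were within 50 bp, beside 45.8%. Control and vehicle summits of shared members were 37 bp apart at the median, against 31 bp.

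**Figure D4:**
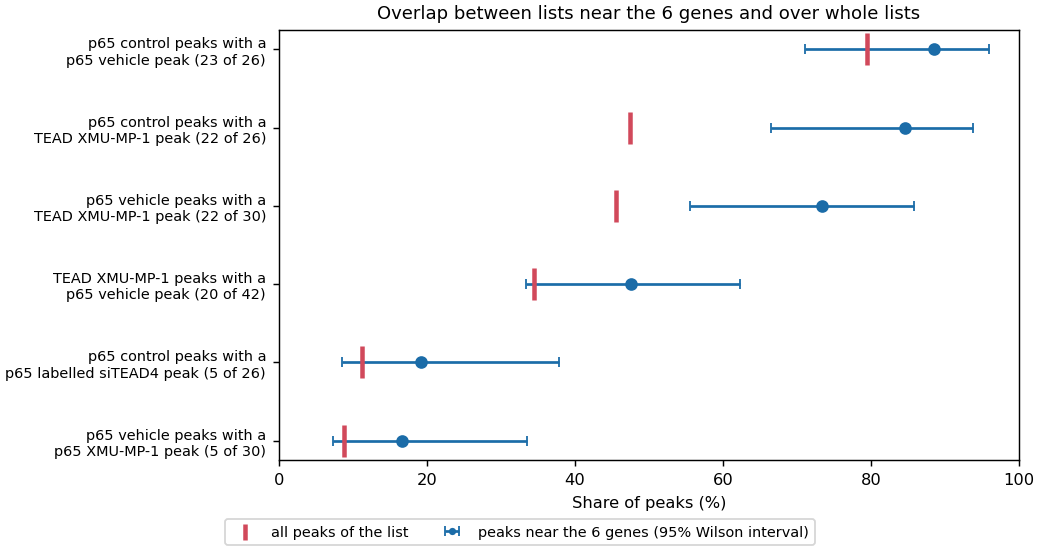
Points give the share of peaks near the 6 genes that overlap a peak of the second list, with 95% Wilson intervals, and vertical marks the same share over all peaks of the first list. TEAD peaks are those of XMU-MP-1 cells. Among the shares plotted, the marks of the whole lists lie outside the interval for control and vehicle p65 peaks with a TEAD peak, 84.6% and 73.3% near the genes against 47.4% and 45.6%.

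The member nearest the edge of the window was the vehicle peak 70.6 kb from ADM (fold 3.598). The nearest peak outside it, which is no member, was a vehicle peak 78.2 kb from NDRG1 (fold 6.13).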

How the data were processed

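Chromatin immunoprecipitates of p65 and TEAD from 786-O cells were analysed as 5 lists of peaks, 1 per library. Per the submitters' processing notes, hg19 was the build, and fastp, Bowtie2 (2.4.5) and MACS2 were the tools. MACS2 settings and the pairing of inputs: not given in the sources used here. For each peak the authors deposited the summit position, a fold enrichment, and p-value and q-value as −log10. Their deposited score repeats the q-value in whole numbers and was left aside.

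Members, gene lists and alternatives were chosen with earlier results of these data known. Named sites are those in 3 or more lists or with a fold of at least 10. Overlaps of at least 1 bp were counted and shares given with 95% Wilson intervals. Fragments at a summit were solved from fold and p-value, taking fold as pileup plus 1 over background plus 1 and p as a Poisson tail. The pileups of the control and XMU-MP-1 lists were multiples of 0.587 and 0.783, which were divided out, and all other lists gave whole numbers. Between 99.96% and 100% of peaks were solved to within 0.005. Depth ratios compare the 1st percentile of the solved background, divided by the shortest peak. The code (Python 3.11.15, scipy 1.17.1) was tested on simulated data. No hg19 annotation or genome was used here. The planned counts at a wider list of hypoxia-inducible genes and at the genes of the pathway, and motifs under peaks, were therefore not run.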

Additional observations from a re-analysis of the deposited data

How the results depend on the processing

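Of 64 recomputed values, 54 stayed within 1.5 times the reported count or inside the 95% interval of the reported share, and 10 moved beyond it. None reversed, but counts and shares of this kind have no direction. With windows of 25 kb the members fell to 16 control, 14 vehicle and 25 TEAD peaks, and windows of 150 kb raised control members to 40; both follow from the width. With a fold of at least 5 in every list, 16 control members remained, 1 labelled siTEAD4 and 2 XMU-MP-1, and 1 gene had a peak labelled siTEAD4. The share of control members kept in the list labelled siTEAD4 was then 6.25% (1 of 16), against 9.50% of the whole control list. That of vehicle members kept in the XMU-MP-1 list was 0% (0 of 20), against 9.13% of the whole vehicle list. This limit removes most treated members, whose folds lie near 5. The share of vehicle members with a TEAD peak ranged from 56.7% with summits within 200 bp to 85.7% with windows of 25 kb. The whole list had 39.99% and 45.6% in these settings, and lay inside the interval of the members in the first and below it in the 5 other alternatives. No paired analysis was possible because no condition was repeated. Alternatives for the wider list of hypoxia-inducible genes were not run. The treated members rest on 21 to 40 fragments each. The fewest fragments of any peak were 12 in the list labelled siTEAD4 and 14 in the XMU-MP-1 p65 list. A peak just under the calling threshold would be counted as lost, and whether there were such peaks was not tested.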
